A study of Mus musculus with 4 samples.

Results

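The sodium pump genes described here are Atp1b1, Atp1b2 and Atp1b3, which encode the beta subunits of the sodium-potassium ATPase, and Fxyd1, which encodes phospholemman, a small membrane protein that binds the pump. They were taken by gene symbol, with no threshold on their values but with earlier results of these data known. All 4 were found among 54752 gene identifiers. The hearts came from mice at postnatal day 14 per the labels, while the series text speaks of neonatal hearts. RNA was sequenced in 2 libraries labelled Carm1 mutant and 2 labelled wild type. Carm1 is a protein arginine methyltransferase that modifies histones and transcriptional coactivators, and the series title asks how it acts in the maturation of heart muscle. No allele, promoter driving a Cre, sex or pooling of animals is given in the labels. Nothing in them says that the libraries of one group are separate mice. Every p-value below therefore rests on these libraries and not on mice known to be separate. The edgeR test of each gene also draws on the spread of other genes.

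The sodium pump exchanges intracellular sodium for extracellular potassium at the cost of ATP. Its catalytic subunit needs a glycosylated beta subunit to fold and to reach the plasma membrane, and a FXYD protein can bind the pair and tune its affinity for ions. In cardiac muscle the pump sets the sodium gradient that drives calcium out through the sodium-calcium exchanger, and it is the target of cardiac glycosides. Phospholemman restrains the cardiac pump until it is phosphorylated, chiefly by protein kinase A after adrenergic stimulation.

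Library totals were 22217442 and 11677604 counts for Carm1 mutant replicates 1 and 2 and 21719161 and 20778420 counts for wild type replicates 1 and 2. Carm1 itself had 35.8 and 31.8 CPM (the count scaled to a common library size, with TMM factors between libraries) in Carm1 mutant libraries, against 45.9 and 52.3 CPM in wild type libraries, and did not pass the edgeR test (FDR 0.114). Xist had 8116 and 3921 counts in Carm1 mutant libraries, against 12 and 15 in wild type libraries, and the 4 Y-linked genes of the sex list were lower in Carm1 mutant libraries, so genotype and sex cannot be told apart in any comparison below. Of 10 defining cardiomyocyte genes, among them Tnnt2, Myh6 and Actc1, all were detected, with a summed level of 46307 and 49796 CPM in Carm1 mutant libraries, against 91495 and 77893 CPM in wild type libraries. In bulk tissue, fewer cells of a type and less RNA per cell cannot be told apart.

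Of the 4 genes, 1 was lower in Carm1 mutant hearts and the other 3 did not pass the test. Atp1b1, the most abundant beta subunit gene in both groups, was 2.60-fold lower, while Atp1b2, Atp1b3 and Fxyd1 were estimated at 113%, 118% and 89.0% of the wild type level. Across all 15283 genes tested, 4.58% were lower and 2.79% higher, 7.37% in all, at the same threshold, an FDR of 0.05 (a Benjamini-Hochberg adjusted p from edgeR's quasi-likelihood test). No member was higher, also at an unadjusted p under 0.05, and DESeq2 and limma-voom likewise called 1 lower and 0 higher. With library totals in place of TMM, the calls over all genes turned from 426 higher and 700 lower to 1189 higher and 206 lower, and the median over all genes, in log2 fold change, moved from 0.02 to 0.41. Atp1b1 then had a log2 fold change of −0.99 and was still called. Set against that median it lay at −1.40 under either scaling. A change of scaling shifts all genes nearly alike, so this likeness follows from the arithmetic and is no separate test.

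**Figure D1:**
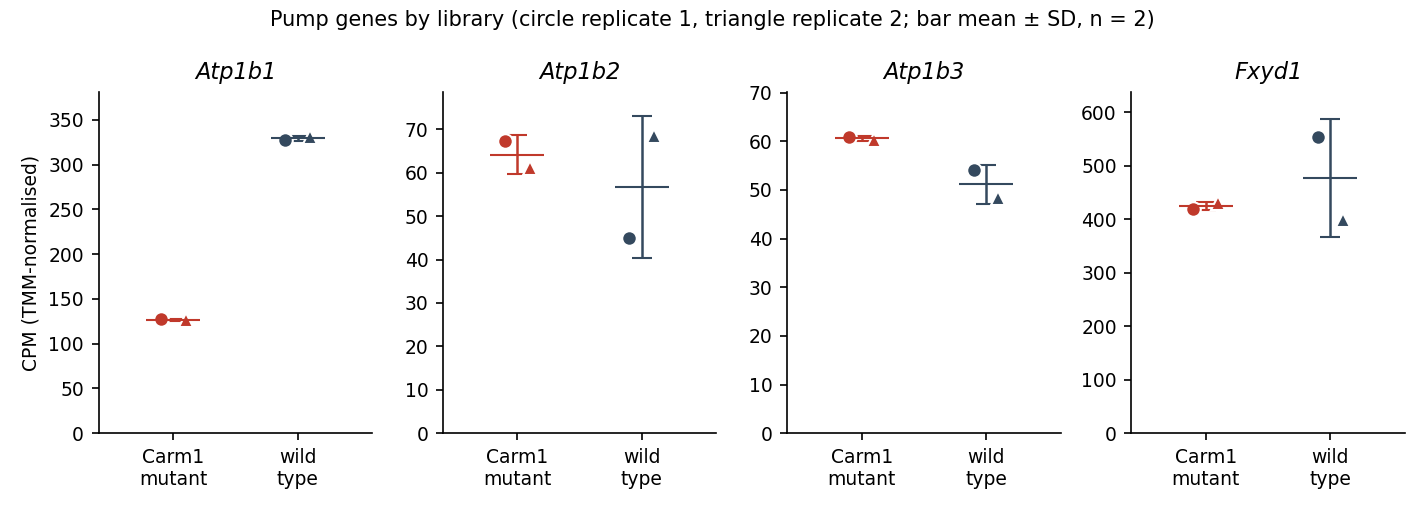
TMM-normalised CPM (vertical axes, each from 0) of Atp1b1, Atp1b2, Atp1b3 and Fxyd1 in Carm1 mutant and wild type libraries, with circles for replicate 1, triangles for replicate 2, and bars for the mean ± SD of 2 libraries. Atp1b1 sits near 127 CPM in both Carm1 mutant libraries and near 329 CPM in both wild type libraries, whereas the groups overlap for Atp1b2 and Fxyd1.

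Atp1b1 encodes beta 1, the main beta subunit of heart muscle. The gene (ENSMUSG00000026576) lies on the minus strand of GRCm38 chromosome 1, from 164437109 to 164458355, with 3081 bases of annotated exon. It had 3198 and 1710 counts in Carm1 mutant libraries, against 5721 and 6490 counts in wild type libraries. After scaling this was 127.5 and 125.9 CPM in Carm1 mutant libraries, against 327.2 and 331.5 CPM in wild type libraries. Both libraries of each group lay close together and the groups did not overlap, as was the case for 59.0% of all tested genes; 28.7% did not overlap and were lower in Carm1 mutant libraries. The means were 127 ± 1.2 CPM in Carm1 mutant and 329 ± 3.0 CPM in wild type (SD, n = 2 each). The log2 fold change was −1.38 (SE 0.20, edgeR FDR 0.0134), or 38.5% of the wild type level with a 95% interval of 28.0% to 52.9%. Of all tested genes 1.94% had a log2 fold change at or below that of Atp1b1. The estimate stayed between −1.41 and −1.38 when each library was left out in turn. The call was nevertheless lost without Carm1 mutant replicate 1 (edgeR FDR 0.134) and without Carm1 mutant replicate 2 (edgeR FDR 0.143), fits in which the wild type pair alone sets the spread.

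The 250 bases before the RefSeq start of Atp1b1 (chr1:164458356-164458605, GRCm38.p6, minus strand) are shown because this is the member that changed. Capitals mark matches to CCAAT or GGGCGG on either strand.
Atp1b1: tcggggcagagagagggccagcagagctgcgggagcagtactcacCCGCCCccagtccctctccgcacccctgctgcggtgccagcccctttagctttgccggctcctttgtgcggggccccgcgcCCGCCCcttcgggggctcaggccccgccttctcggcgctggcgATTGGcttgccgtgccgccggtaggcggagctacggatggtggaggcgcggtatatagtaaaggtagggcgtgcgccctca
The window was 70.4% G plus C, more than 91.2% of 32851 RefSeq windows of the same length. It held 1 match to CCAAT, starting 81 bases before the start and found in 33.9% of all windows, and 2 matches to GGGCGG, found in 32.7%. The exact TATA box letters TATAAA, which 12.4% of all windows hold, were not in it. Neither were the letters of a nuclear receptor half-site, AGGTCA, held by 14.02% of windows, nor those of an E-box, CANNTG, held by 66.2%. Other forms of a TATA box were not searched for. The window holds the letters tatatag near the start, so a TATA-like stretch is present although TATAAA is not. The matches are letters only, and no binding was measured.

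At its 3′ end Atp1b1 overlaps Nme7, a gene on the opposite strand, by 575 exonic bases. The sources used here do not say whether counting used strand, so reads in that stretch cannot be assigned with certainty. Nme7 had 72 and 50 counts in all in Carm1 mutant libraries, against 48 and 48 in wild type libraries, which is small beside the counts of Atp1b1. These counts do not show how many reads in that stretch, if any, were counted for neither gene.

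Atp1b2 encodes beta 2, first known as an adhesion molecule of glia and also made in muscle. The gene (ENSMUSG00000041329, GRCm38 chromosome 11, 69599736 to 69605942, minus strand) had 1688 and 829 counts in Carm1 mutant libraries, against 788 and 1338 counts in wild type libraries. Scaled, it stood at 67.3 and 61.0 CPM in Carm1 mutant libraries, against 45.1 and 68.3 CPM in wild type libraries. The wild type libraries lay on either side of the Carm1 mutant ones. The log2 fold change was 0.18 (95% interval −0.37 to 0.73, edgeR FDR 0.664). Wild type replicate 1 decided its direction: without that library the log2 fold change was −0.10 (edgeR FDR 0.712), and without wild type replicate 2 it was 0.47 (edgeR FDR 0.0376). A list of 10 markers of Schwann cells and glia had 0 genes called, with a summed level of 32.3 and 28.9 CPM in Carm1 mutant libraries, against 23.2 and 24.6 CPM in wild type libraries; their part in the level of Atp1b2 was not tested.

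Atp1b3 encodes beta 3, a subunit found in many tissues. The gene (ENSMUSG00000032412, GRCm38 chromosome 9, 96332655 to 96364442, minus strand) had 1529 and 817 counts in Carm1 mutant libraries, against 945 and 947 counts in wild type libraries. This was 61.0 and 60.2 CPM in Carm1 mutant libraries, against 54.0 and 48.4 CPM in wild type libraries. The groups did not overlap, as for 59.0% of all tested genes, and the difference did not pass the test (log2 fold change 0.24, 95% interval −0.18 to 0.67, edgeR FDR 0.427). The interval allows anything from 88.2% to 159% of the wild type level. A processed copy on the X chromosome, Gm1848, is 96.4% identical over 805 bases; it had 2 and 0 counts in Carm1 mutant libraries, against 3 and 4 in wild type libraries. A second copy, Gm6680 on chromosome 3, is 86.1% identical over 640 bases and was listed at 0 in every library. The sources used here do not say how reads were shared between such copies.

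The upstream window of Atp1b3 that starts nearest to the annotated end of the gene (chr9:96364432-96364681, GRCm38.p6, minus strand) is shown for comparison with Atp1b1. Capitals mark matches to GGGCGG on either strand.
Atp1b3: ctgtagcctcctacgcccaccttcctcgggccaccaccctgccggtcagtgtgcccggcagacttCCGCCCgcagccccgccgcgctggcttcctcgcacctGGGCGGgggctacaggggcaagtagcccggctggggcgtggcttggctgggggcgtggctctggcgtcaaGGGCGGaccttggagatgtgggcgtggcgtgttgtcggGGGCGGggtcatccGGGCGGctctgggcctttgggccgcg
It held 5 matches to GGGCGG, against 2 in the Atp1b1 window, and was 73.6% G plus C. RefSeq gives Atp1b3 a second start, whose window (chr9:96363716-96363965) lies inside the annotated gene. That window held no GGGCGG match and was 76.8% G plus C. Atp1b1, Atp1b3 and Fxyd1 matched the RefSeq promoter table; Atp1b2 did not.

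Because the scaling between libraries moves all 4 genes together, the make-up of the beta subunit transcripts was also computed within each library, from counts per kilobase of exon. Atp1b1 made up 49.6% and 50.5% of beta transcripts in Carm1 mutant libraries, against 75.9% and 74.4% in wild type libraries. Atp1b3 made up 30.6% and 31.1% in Carm1 mutant libraries, against 16.2% and 14.01% in wild type libraries. Atp1b2 made up 19.8% and 18.4% in Carm1 mutant libraries, against 7.89% and 11.6% in wild type libraries. In each of the 3 shares both Carm1 mutant libraries lay on one side of both wild type libraries. How often shares of other genes lie apart in this way was not computed. The shares of a library add up to the whole, so the 3 shares are not separate results. A lower Atp1b1 share alone raises the rest, and neither Atp1b2 nor Atp1b3 passed the edgeR test by its level. The Atp1b1 share averaged 50.05 ± 0.58% in Carm1 mutant and 75.2 ± 1.1% in wild type (SD, n = 2 each), a difference of −25.1 percentage points. For each share the two-sided exact permutation test gave p = 0.333, the smallest value that 2 libraries a group allow.

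**Figure D2:**
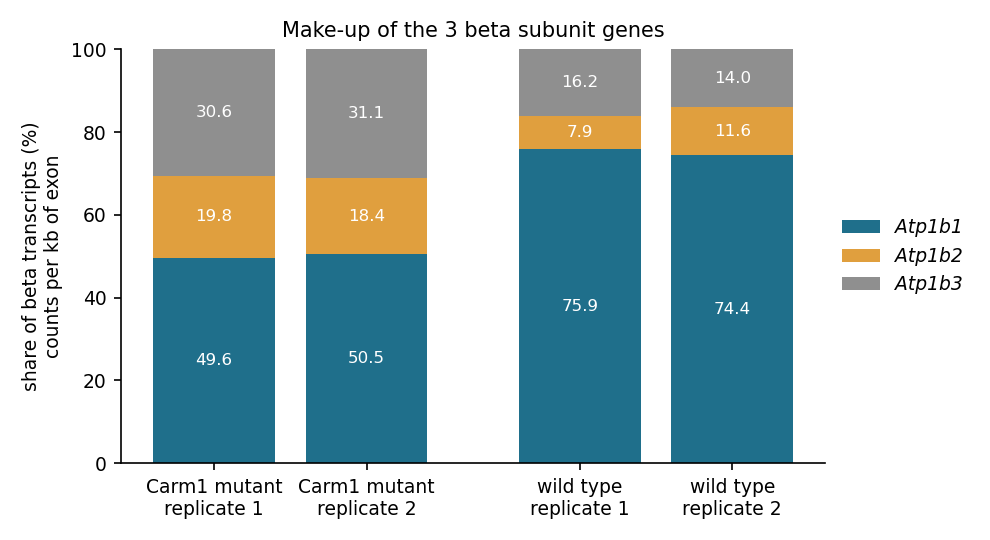
Share of each beta subunit gene in the summed counts per kilobase of exon (vertical axis, %), 1 bar per library, Carm1 mutant libraries left of wild type libraries. Atp1b1 fills about 50% of the bar in both Carm1 mutant libraries and about 75% in both wild type libraries.

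The ratio of Atp1b1 to Atp1b3, per kilobase, was 1.62 and 1.62 in Carm1 mutant libraries, against 4.69 and 5.31 in wild type libraries. That of Atp1b1 to Atp1b2 was 2.51 and 2.73 in Carm1 mutant libraries, against 9.63 and 6.43 in wild type libraries. On the log2 scale these ratios differed by −1.62 and −1.59 between the groups. In contrast, the ratio of Atp1b2 to Atp1b3 was 0.646 and 0.593 in Carm1 mutant libraries, inside the wild type values of 0.488 and 0.826. The summed beta level was 83.4 and 81.0 CPM per kilobase in Carm1 mutant libraries, against 139.9 and 144.6 CPM per kilobase in wild type libraries, so that the Carm1 mutant mean was 57.8% of the wild type mean. Between beta genes the coding sequences were 64.0% identical for Atp1b1 and Atp1b2, 60.8% for Atp1b1 and Atp1b3 and 60.5% for Atp1b2 and Atp1b3, over aligned bases. Fxyd1, which encodes no beta subunit, had higher values by the same method: 75.7% with Atp1b1, 74.3% with Atp1b2 and 71.9% with Atp1b3. The percentages therefore do not measure how closely the genes are related. The longest transcripts of the 4 genes shared no run of 25 bases, which limits how far reads of one could be counted for another.

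Fxyd1 was the most abundant of the 4 genes in every library. It lies on GRCm38 chromosome 7 (ENSMUSG00000036570, 31051678 to 31057199, minus strand), 211 bases from its relative Fxyd7, which had at most 47 counts in any library. Fxyd1 had 10504 and 5834 counts in Carm1 mutant libraries, against 9695 and 7809 counts in wild type libraries. Scaled, this was 419 and 430 CPM in Carm1 mutant libraries, against 554 and 399 CPM in wild type libraries. Both Carm1 mutant values fell between the wild type ones. The log2 fold change was −0.17 (95% interval −0.72 to 0.38, edgeR FDR 0.687). Its direction depended on 1 library, with 0.07 without wild type replicate 1 (edgeR FDR 0.787) and −0.42 without wild type replicate 2 (edgeR FDR 0.0408). Library totals gave 0.24 (edgeR FDR 0.378), a scaling that shifts all genes nearly alike. Set against the median of all genes, Fxyd1 therefore lay at nearly the same value, −0.17 under that scaling and −0.19 under TMM.

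The window before the RefSeq start of Fxyd1 (chr7:31054854-31055103, GRCm38.p6, minus strand) is shown as the one that differs most in base composition from the other windows. The annotated gene, on the minus strand, begins at 31057199. This window therefore lies inside the annotated gene and not upstream of it, which limits its comparison with the windows shown above. The window holds no match to any of the 5 motifs, so it has no capitals.
Fxyd1: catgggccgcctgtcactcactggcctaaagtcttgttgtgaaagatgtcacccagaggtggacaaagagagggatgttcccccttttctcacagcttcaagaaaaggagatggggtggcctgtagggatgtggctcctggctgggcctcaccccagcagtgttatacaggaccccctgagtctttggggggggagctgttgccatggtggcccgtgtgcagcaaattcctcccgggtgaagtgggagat
It was 57.2% G plus C with 3 CG dinucleotides, against 24 in the window of Atp1b1 and 24 in that of Atp1b3 shown above.

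Phospholemman acts on the assembled pump, so its transcript was also set against the beta genes. The ratio of Fxyd1 to the summed beta genes, per kilobase, was 2.30 and 2.43 in Carm1 mutant libraries, against 1.81 and 1.26 in wild type libraries. The groups did not overlap, but how often such ratios of other genes do so was not computed. The log2 ratio averaged 1.24 ± 0.06 in Carm1 mutant and 0.60 ± 0.37 in wild type (SD, n = 2 each), a 1.56-fold difference, with exact two-sided permutation p = 0.333. The difference of 0.64 on the log2 scale was 0.38 without wild type replicate 2 and 0.90 without wild type replicate 1. The beta sum includes Atp1b1, and its Carm1 mutant mean was 57.8% of the wild type mean. Fxyd1 by its own level did not pass the edgeR test (FDR 0.687). The ratio is therefore no result separate from the lower Atp1b1. Per kilobase of exon, mean levels ran from Fxyd1 (194 CPM per kilobase in Carm1 mutant and 218 in wild type) through Atp1b1 (41.1 and 107) and Atp1b3 (25.4 and 21.4) to Atp1b2 (15.7 and 13.9). That order was the same in both groups, and neighbouring genes did not overlap within a group. The level of Fxyd1 per length is the least certain, because its annotated exons cover 2186 bases while its longest transcript has 668. Measured per longest transcript it reached 635 CPM per kilobase in Carm1 mutant and 714 in wild type, and the order of the 4 genes did not change.

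Wild type replicate 1 stood apart from the other libraries in how its counts ran with gene length. Across genes, its deviation from the mean of all libraries had a Spearman correlation with exon length of −0.30, against 0.25 in wild type replicate 2 and 0.18 and −0.01 in Carm1 mutant libraries, a description over genes that are not independent. It was the lowest library for Atp1b2, the member with the most annotated exon (4085 bases), and the highest for Fxyd1. With an offset for length and GC content, the log2 fold changes were −1.30 for Atp1b1 (edgeR FDR 0.00252), 0.17 for Atp1b2 (edgeR FDR 0.618), 0.33 for Atp1b3 (edgeR FDR 0.177) and −0.22 for Fxyd1 (edgeR FDR 0.467). Without the offset they were −1.38, 0.18, 0.24 and −0.17 in the same order. The part of gene length in the values of wild type replicate 1 was not tested.

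The members were next set against the level of cardiomyocyte marker RNA in the libraries. That level does not tell fewer cells from less marker RNA per cell. The 10 cardiomyocyte markers had a median log2 fold change of −0.82, and 1 of them, Pln, was called. When libraries were scaled to the geometric mean of these markers, an alternative added after the data were seen, Atp1b1 had a log2 fold change of −0.64 and was still called (edgeR FDR 0.0350). Under that scaling Fxyd1 stood at 0.59 (edgeR FDR 0.0394), Atp1b3 at 0.99 (edgeR FDR 0.0160) and Atp1b2 at 0.89 (edgeR FDR 0.0517). The median of all genes moved to 0.76 with it, and 6294 genes were called higher and 152 lower. Less the median of all genes, the 4 log2 fold changes were −1.40 for Atp1b1, −0.17 for Fxyd1, 0.23 for Atp1b3 and 0.13 for Atp1b2. These nearly repeat the values under TMM because the scaling shifts all genes nearly alike, and they are no separate test. Fibroblast markers had 0 of 8 genes called and a median of 0.63, with summed levels of 5359 and 5602 CPM in Carm1 mutant libraries, against 3251 and 3750 CPM in wild type libraries. Endothelial markers had 0 of 8 called and a median of 0.32. Of 6 atrial cardiomyocyte markers 2 were lower and 1 higher, with a median of −1.03 and summed levels of 370 and 391 CPM in Carm1 mutant libraries, against 602 and 485 CPM in wild type libraries. The lower ones were the atrial light chains Myl7 (−2.04, edgeR FDR 0.0206) and Myl4 (−1.70, edgeR FDR 0.0250), and the higher one was Nppa, the atrial natriuretic peptide (1.07, edgeR FDR 0.0447). The part of cell or chamber make-up in the level of each pump gene was not tested. The marker scaling follows marker RNA and not the number of cells.

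**Figure D3:**
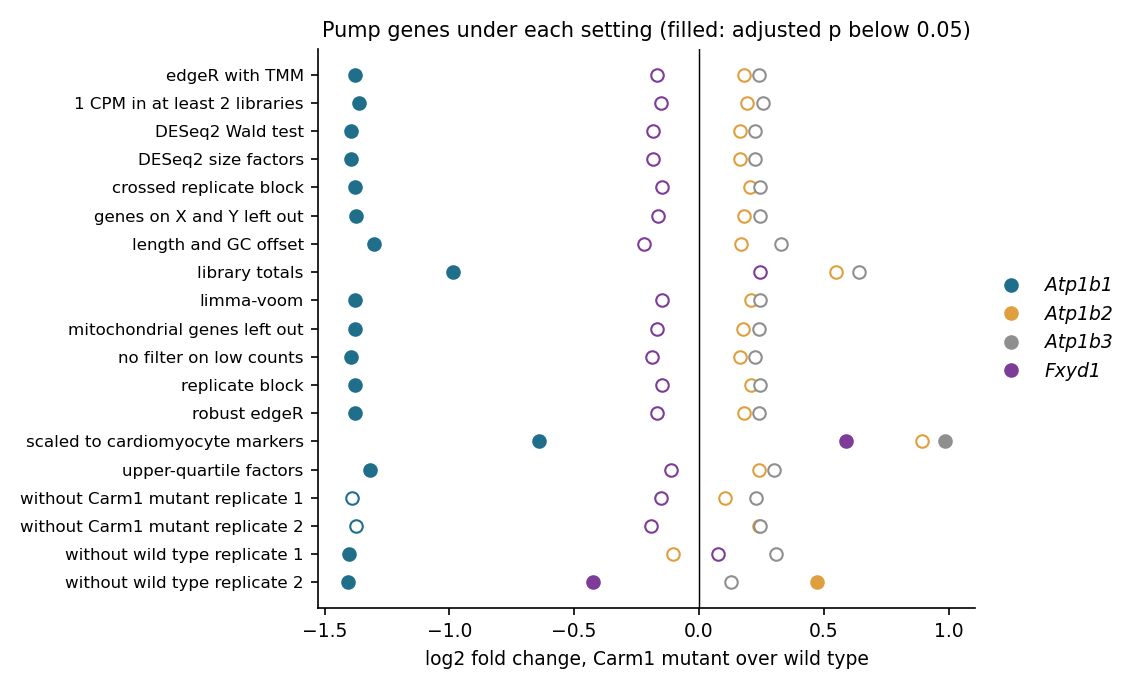
Log2 fold change of the 4 genes, Carm1 mutant over wild type (horizontal axis), under each setting (rows), with filled circles where the adjusted p is below 0.05. Atp1b1 lies left of 0 in every row, from −1.41 to −0.64, while Atp1b2 and Fxyd1 cross 0 between rows.

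Other genes that bind, modify or work beside the pump were taken from 5 lists, which together hold 82 genes, 69 of them tested. Of these 8 were lower, 2 higher and 59 did not pass, and the median log2 fold change was −0.22, against 0.02 over all genes tested and −0.12 over those with a mean of at least 20 CPM. Over all genes tested, 4.58% were lower and 2.79% higher. The lists were chosen with earlier results of these data known, so their counts beside these shares are a description and no test. The medians of the lists moved with the scaling, as did that of all genes. Among 14 FXYD, beta-related and pump-interacting genes, 6 were tested, of which 1 was higher and 5 did not pass. None of the 6 was lower in edgeR, also at an unadjusted p under 0.05, in DESeq2 or in limma-voom. The other 8 had at most 7 counts in any library, among them the muscle beta-like gene Atp1b4. Fxyd6, a FXYD protein, was the higher one, with 53.7 and 64.0 CPM in Carm1 mutant libraries, against 30.9 and 27.1 CPM in wild type libraries (log2 fold change 1.02, SE 0.20, edgeR FDR 0.0264). Fxyd2, the gamma subunit best known from kidney, had 3.55 and 3.02 CPM in Carm1 mutant libraries, against 1.32 and 1.23 CPM in wild type libraries, and just missed the threshold (edgeR FDR 0.0501). Fxyd5, also a pump modulator, had a log2 fold change of 0.13 (edgeR FDR 0.695). Fxyd7 stood at 0.00, Nkain1 at −0.32 and Nkain4 at −0.21, all with under 5 CPM.

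Phospholemman's modifiers had the lowest median of the 5 lists, −0.53. With library totals it was −0.16, with 0 genes called, and with the marker scaling 0.19, with 0 lower and 3 higher; the median of all genes was then 0.41 and 0.76. Under TMM, of 17 tested, 4 were lower, where 4.58% of all tested genes were, and 13 did not pass; none was higher in edgeR, in DESeq2, in limma-voom or at an unadjusted p under 0.05. Akap1, which anchors protein kinase A at mitochondria, had 54.4 and 54.0 CPM in Carm1 mutant libraries, against 107.6 and 114.6 CPM in wild type libraries (log2 fold change −1.04, SE 0.18, edgeR FDR 0.0227). Adrb1, the beta 1 adrenergic receptor, had 10.6 and 11.3 CPM in Carm1 mutant libraries, against 24.4 and 20.2 CPM in wild type libraries (−1.03, SE 0.20, edgeR FDR 0.0274). Prkar2a, a regulatory subunit of protein kinase A, was also lower, with a log2 fold change of −0.83 (SE 0.19, edgeR FDR 0.0406). Zdhhc5, a palmitoyltransferase that acts on phospholemman, was lower too (−0.78, SE 0.19, edgeR FDR 0.0451).

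Among 20 tested sodium and potassium carriers, 1 was lower, 1 higher and 18 did not pass, with a median of −0.03. The 2 called genes are both sodium-phosphate cotransporters and moved in opposite directions. Slc20a1 had 37.0 and 35.6 CPM in Carm1 mutant libraries, against 9.55 and 17.4 CPM in wild type libraries (log2 fold change 1.43, SE 0.28, edgeR FDR 0.0278). Slc20a2 had 90.6 and 78.7 CPM in Carm1 mutant libraries, against 166.9 and 163.7 CPM in wild type libraries (−0.96, SE 0.20, edgeR FDR 0.0293). Of 9 tested calcium pump genes and their inhibitors, 2 were lower and 7 did not pass; none was higher, also at an unadjusted p under 0.05, in DESeq2 or in limma-voom. Atp2a2, which encodes SERCA2 and returns calcium to the sarcoplasmic reticulum, had a log2 fold change of −1.48 (SE 0.25, edgeR FDR 0.0203), close in size to that of Atp1b1, and its inhibitor Pln, also 1 of the 10 cardiomyocyte markers, one of −0.90 (SE 0.21, edgeR FDR 0.0443). Of 17 anchoring and quality control genes 1 was lower and 16 did not pass; none was higher in edgeR, DESeq2 or limma-voom, although 2 were higher at an unadjusted p under 0.05. The lower one was Ank3, an ankyrin that tethers membrane proteins (−0.86, SE 0.20, edgeR FDR 0.0455).

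With library totals, and likewise with the marker scaling, Atp2a2 was the only gene of the 8 lower calls that stayed called. Its log2 fold change was −1.09 with library totals (edgeR FDR 0.0278) and −0.74 with the marker scaling (edgeR FDR 0.0266). Leaving out either Carm1 mutant library ended all 8 of these calls and that of Fxyd6, whereas Slc20a1 stayed called under every alternative run.

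**Figure D4:**
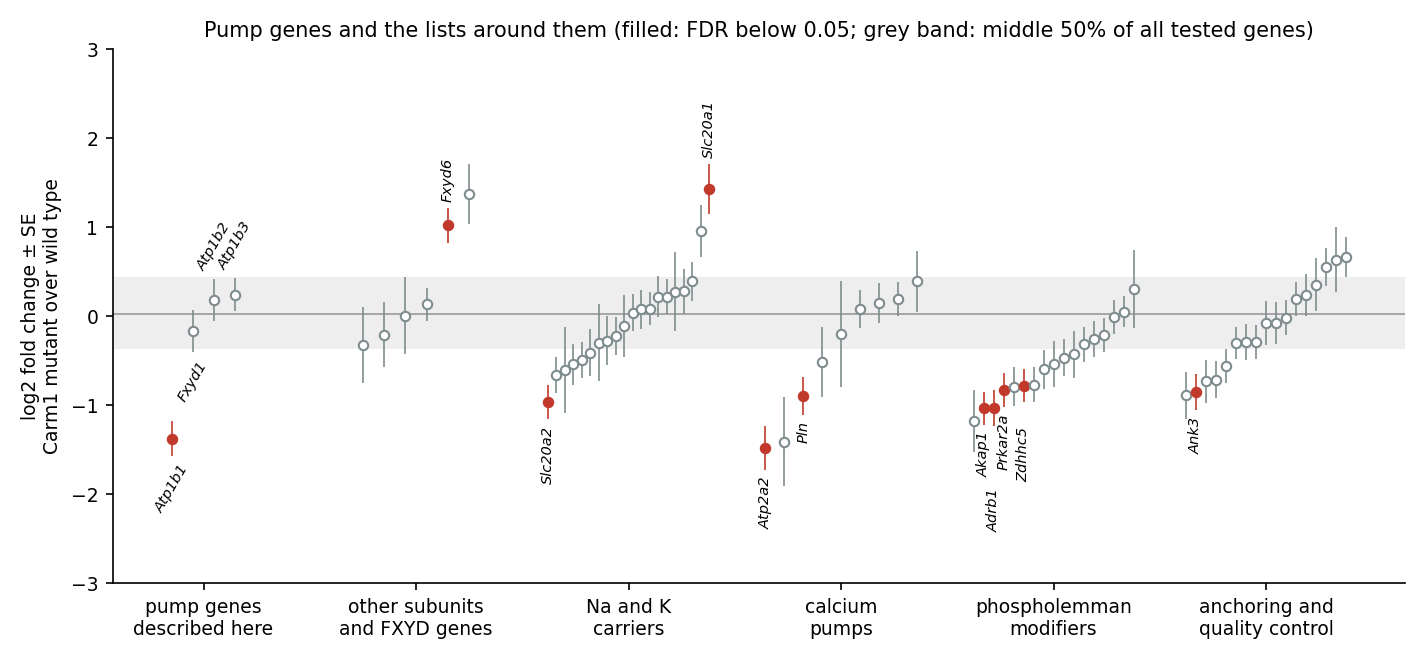
Log2 fold change ± SE, Carm1 mutant over wild type (vertical axis), of the 4 pump genes and of every tested gene of the 5 lists (horizontal axis), with red filled points for an edgeR FDR below 0.05. The grey band holds the middle 50% of all tested genes, from −0.36 to 0.43; Atp1b1 lies below it and the other 3 pump genes lie inside it.

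Among 5703 genes with a standard symbol and a mean of at least 20 CPM, those whose profile over the 4 libraries was nearest to that of Atp1b1 were Fam160a1, Gys1 and Fgf13. Nearness was the root mean square difference of log2 CPM, centred on each gene's mean, and was 0.030, 0.040 and 0.041 for them. Gys1, muscle glycogen synthase, had 60.6 and 60.3 CPM in Carm1 mutant libraries, against 146.3 and 152.9 CPM in wild type libraries. Fgf13, a modulator of sodium channels, had 24.5 and 24.4 CPM in Carm1 mutant libraries, against 62.4 and 59.9 CPM in wild type libraries. Nearest to Atp1b2 were Nisch, Col6a3 and Stk38, nearest to Atp1b3 were Pabpc1, Frmd6 and Trip6, and nearest to Fxyd1 were Hars, Hspb1 and Nop53. None of these last 9 passed the edgeR test. With 4 libraries such a likeness is a description of this set of samples.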

How the data were processed

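RNA from hearts was sequenced in 2 Carm1 mutant and 2 wild type libraries, made by BGI, per the labels. FastQC and HISAT2 with the mm10 build were used, per the submitters' processing notes; the sources used here do not give their versions, nor the counting program, its annotation or its use of strand. The authors deposited raw counts per Ensembl gene, which were used unchanged. Columns were matched to samples by title, and 54723 of 54752 identifiers matched GENCODE M21, built on the same assembly as mm10; coordinates are from it, counted from 1. Promoter sequences are from RefSeq (GRCm38.p6). The few identifiers with no GENCODE name were kept, at no more than 0.00106% of any library.

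In edgeR 4.0.16 under R 4.3.3, low genes were removed with filterByExpr defaults, TMM factors computed, and genotype tested by quasi-likelihood, with Benjamini-Hochberg adjustment over 15283 genes and a threshold of 0.05. SE is the log2 fold change divided by the square root of F. The steps were tested on simulated data. Alternatives used DESeq2 1.42.0, limma 3.58.1, other scalings, filters and offsets, a replicate block, and leaving out each library. Near copies were sought with BLAST+ 2.17.0 and coding sequences aligned with Biopython 1.88. The counts of replicates differed with a chi-square of 11.5 per degree of freedom for Carm1 mutant and 51.1 for wild type, so neither pair repeated within counting error.

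The members and lists were chosen with earlier results of these data known. The text names every member, tested genes of the pump subunit and FXYD list, up to 4 called genes of the other lists by adjusted p, the 3 genes nearest each member, and Carm1. A few genes of the lists are not reported here, and the lists' counts are given without them. Protein identity between members was not analysed here. Atp1b4 and overlapping or copied genes were named beyond that rule.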

Additional observations from a re-analysis of the deposited data

How the results depend on the processing

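Under 19 alternatives Atp1b1 kept its sign and was called in 17; it was not called without Carm1 mutant replicate 1 or 2. Leaving out a library gave −1.41 to −1.38 for Atp1b1, −0.10 to 0.47 for Atp1b2, 0.13 to 0.31 for Atp1b3 and −0.42 to 0.074 for Fxyd1 (0.0744 without wild type replicate 1), with 0 to 2 members called lower and 0 to 1 higher, 0 to 19 list genes lower and 1 to 12 higher. The value of Fxyd1 was above 0 with library totals (0.24) and with the marker scaling (0.59), which shift all genes; less the median of all genes it was −0.17 under both. With the marker scaling Atp1b3 (0.99) and 2 members in all were called higher. List genes called numbered 1 lower and 5 higher with library totals, 4 lower with upper-quartile factors, 15 lower and 4 higher with no filter, 15 lower with DESeq2's Wald test, 15 lower and 4 higher at an FDR of 0.10, 18 lower and 5 higher with the length and GC offset, and 1 lower and 22 higher with the marker scaling, against 8 lower and 2 higher as reported. The cause was not tested. From raw counts with no length the Atp1b2 and Atp1b3 shares differed by 12.6 and 12.4 percentage points, against 9.37 and 15.8 per kilobase.

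Over all genes, 700 lower and 426 higher became 206 and 1189 with library totals, 1461 and 1169 with no filter, 1117 and 592 with DESeq2, 1411 and 1077 at an FDR of 0.10, 1587 and 1039 with the length and GC offset, and 152 and 6294 with the marker scaling; leaving out a library gave 156 to 3126 lower and 221 to 2553 higher. The labels do not say that replicate numbers pair samples, and deviations of same-numbered libraries correlated at −0.25 across genes. A replicate block gave log2 fold changes of −1.38 for Atp1b1, 0.21 for Atp1b2, 0.24 for Atp1b3 and −0.15 for Fxyd1, with 1 member lower, 6 list genes lower and 2 higher, and 642 genes lower and 580 higher. The crossed block, added after the data were seen, gave 1 member lower, 19 list genes lower and 7 higher, and 2139 genes lower and 2037 higher. Depth limits genes of a few counts, such as Fxyd2; the 4 members had at least 788 counts in every library.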
